A study of Mus musculus with 4 samples.

Results

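The genes described here encode enzymes and carriers that keep adenosine triphosphate (ATP) available to contracting muscle: the creatine kinases Ckm, Ckb, Ckmt1 and Ckmt2, the adenylate kinase Ak1, the adenylosuccinate synthetase Adssl1, and the ADP/ATP translocases Slc25a4 and Slc25a5. They were chosen by name, and every probe set was taken to which the array's annotation gives exactly 1 symbol and that symbol is one of these. All 8 genes were found among 8251 named genes, with 14 of the 12488 probe sets in the table. A probe set is the group of short oligonucleotides that together give 1 value for a transcript.

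RNA came from the soleus, a slow-twitch muscle of the calf, of female mice aged 6 months. The HSL-null group lacks hormone-sensitive lipase (HSL, encoded by Lipe), which hydrolyses stored acylglycerols, and is set against the Wildtype group. Each genotype was 1 pool of muscle from 5 mice measured on 2 arrays, and those arrays are duplicates of the same pool. The labels give no strain, targeted allele or diet. Because each genotype is 1 pool, the animals supply no replication, no p-value was computed, and errors describe the arrays only.

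Creatine kinase moves phosphate reversibly between ATP and creatine, so that phosphocreatine can refill ATP at the myofibrils during contraction. The mitochondrial forms do this in the space between the mitochondrial membranes, next to the translocases, which exchange matrix ATP for cytosolic ADP. Adenylate kinase recovers ATP from ADP and leaves AMP, and adenylosuccinate synthetase starts the return of IMP, the product of AMP deamination, to AMP. In skeletal muscle the cytosolic enzymes Ckm and Ak1 are richer in fast glycolytic fibres, and Ckmt2 and Slc25a4 go with mitochondrial content.

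Values are linear intensities as the authors scaled them. For log2 differences they were floored at an intensity of 5.70, the 25th percentile of all values in the table. A probe set entered the comparison when its mean over the 4 arrays reached 27.7, the median of such means over the table. This left 6208 probe sets, 9 of them from 7 of the 8 genes. Both Ckmt1 probe sets fell below that level. Levels of different probe sets are not compared, because each binds its target with its own efficiency. Across the 6208 probe sets the difference between duplicates had an SD of 0.25 (log2) in HSL-null and 0.26 in Wildtype.

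The labels were checked first. Lipe measured 16.2 and 19.4 on the HSL-null arrays, against 71.4 and 70.2 on the Wildtype arrays, and was lower on every pair of arrays (log2 difference -2.00 ± 0.13, SE of duplicates). Several slow fibre genes were bright in both pools. For example, Tnnt1, the slow troponin T, measured 6183 and 5940 in HSL-null and 6089 and 5646 in Wildtype. Fast fibre genes were bright too, such as Atp2a1 at 5133 and 5171 in HSL-null and 5170 and 4769 in Wildtype. This brightness therefore does not identify the muscle. The beta-actin control, whose ratio of 3′ to 5′ signal reports on RNA integrity, gave ratios of 0.816 and 0.823 in HSL-null and 0.688 and 0.706 in Wildtype. The same ratio for the Gapdh control was 0.922 and 0.912 in HSL-null and 0.955 and 0.927 in Wildtype, a smaller difference in the other direction.

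Among the phosphagen and adenine nucleotide genes compared, which leave out Ckmt1, no difference between the pools was large beside the spread of duplicates. Of the 9 probe sets compared, 0 were separated, where separated means that every one of the 4 possible pairings of arrays across the genotypes pointed the same way and differed by at least 1.5-fold. The same rule separated 0.451% of all 6208 probe sets, so that 0 of 9 is near that background and does not set these genes apart. Their mean log2 differences ran from -0.12 (Ak1) to 0.22 (Slc25a5), and all but that of Slc25a5 lay between the 10th and the 90th percentile of all probe sets (-0.22 and 0.22). Their median was 0.035, against -0.0022 for all probe sets, and the median size of the difference, without its sign, was 0.081 against 0.10. In 6 of the 9 the SE of the duplicates was as large as the difference or larger, and in 0 of 9 was the difference more than 2 times its SE. The rule needs at least 1.5-fold on the closest pair of arrays. Smaller differences between the pools, and differences of 1.5-fold blurred by the spread of duplicates, could be present without being called.

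**Figure D1:**
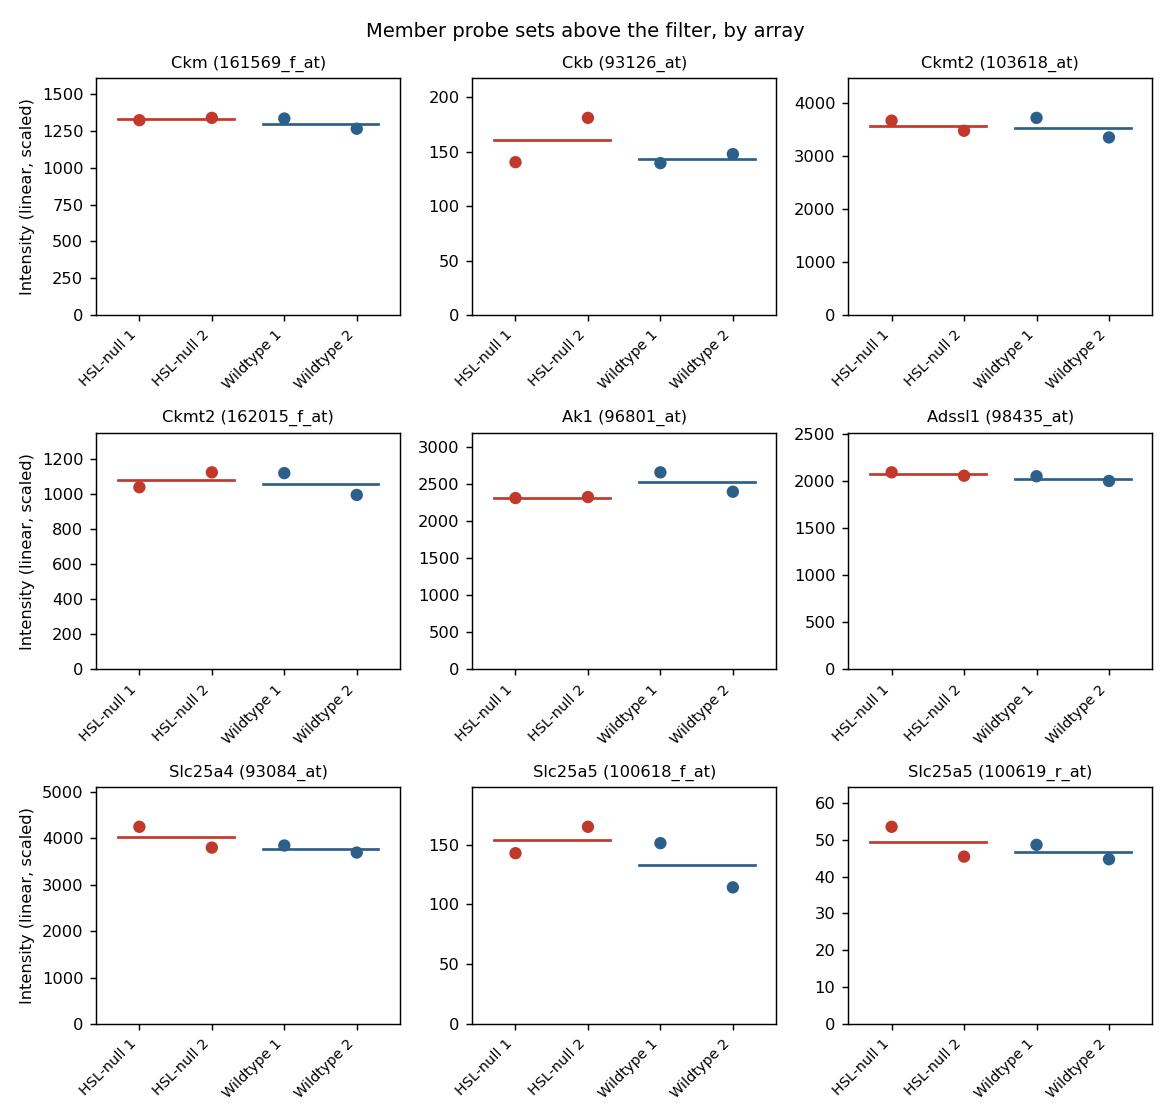
Intensity (linear, scaled by the authors, axes from 0) of the 9 member probe sets above the filter on each array, HSL-null in red and Wildtype in blue, with a line at each mean of 2 arrays. The arrays of the genotypes lie apart only for Ak1 and, at the closest pair by a fold of 1.00, for Adssl1.

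Among the creatine kinases, Ckm, the muscle-type enzyme of the cytosol and the sarcomere's M-line, was read by the probe set 161569_f_at. It measured 1325 and 1341 in HSL-null, against 1336 and 1267 in Wildtype. Both HSL-null values and Wildtype array 1 lie in a narrow band and Wildtype array 2 lies below it, so that the groups overlap. The means were 1333 ± 11.2 (SD, n = 2 arrays) in HSL-null and 1301 ± 49.1 in Wildtype, with a log2 difference of 0.035 ± 0.039 (SE of duplicates). No pair of arrays differed by more than 1.06-fold. The suffix _f marks probes that can also bind related sequences, so this value may include signal from other transcripts of the family.

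The second Ckm probe set, 160175_at, was dim, with 18.5 and 12.1 in HSL-null and 18.4 and 10.3 in Wildtype. In both genotypes the array numbered 1 was the higher, and the means of 15.3 ± 4.53 and 14.4 ± 5.73 (SD, n = 2 arrays) are closer than the duplicates are to each other. This probe set stayed below the filter although it carries the symbol of an abundant muscle enzyme, so the probe sets named Ckm differ in whether they place the gene above the filter.

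Ckmt2, the sarcomeric mitochondrial creatine kinase, gave 3660 and 3470 in HSL-null and 3713 and 3345 in Wildtype on its brightest probe set, 103618_at. Both the highest and the lowest value came from the Wildtype duplicates, which enclose the HSL-null values. The means were 3565 ± 134 and 3529 ± 260 (SD, n = 2 arrays), and the log2 difference of 0.016 ± 0.085 was the smallest in size of the 9.

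A further Ckmt2 probe set, 162015_f_at, measured 1040 and 1126 in HSL-null and 1121 and 996 in Wildtype, a log2 difference of 0.034 ± 0.10 (SE of duplicates). The groups overlapped here too, so that both readable probe sets of this gene give the same picture. The third, 161876_r_at, read 0.2 and 1.7 in HSL-null and 0.6 and 0.5 in Wildtype, under the floor on all 4 arrays, and holds no information on the gene.

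Ckb, the brain-type cytosolic enzyme that is also found in smooth muscle and many other tissues, measured 140.4 and 181.1 in HSL-null, against 139.5 and 147.8 in Wildtype. HSL-null array 2 stands above the other 3 arrays, which lie within 8.30 intensity units of each other. The means were 161 ± 28.8 (SD, n = 2 arrays) in HSL-null and 144 ± 5.87 in Wildtype, and the log2 difference was 0.15 ± 0.19. It was 0.33 without HSL-null array 1 and -0.032 without HSL-null array 2, so its direction rests on 1 array. Of the smooth muscle markers, 5 of 6 were above the filter, and their log2 differences were mixed. Myh11 (-0.59), Actg2 (-0.64) and Smtn (-0.090) were lower in HSL-null, and Acta2 (0.040) and Tagln (0.12) were higher. Their part in the Ckb value was not tested. In tissue RNA, fewer cells of a type and less RNA per cell cannot be told apart.

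Ckmt1, the ubiquitous mitochondrial creatine kinase of brain and epithelia, was dim on both of its probe sets. On 160565_at it measured 12.0 and 15.5 in HSL-null and 12.4 and 14.3 in Wildtype. On 161495_r_at it measured 14.4 and 23.1 in HSL-null and 14.6 and 20.6 in Wildtype. All 8 values lie above the floor of 5.70 and below the filter of 27.7, and in both genotypes and on both probe sets array 2 was the higher. The means on 161495_r_at, 18.8 ± 6.15 in HSL-null and 17.6 ± 4.24 in Wildtype (SD, n = 2 arrays), differ by less than the duplicates.

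**Figure D2:**
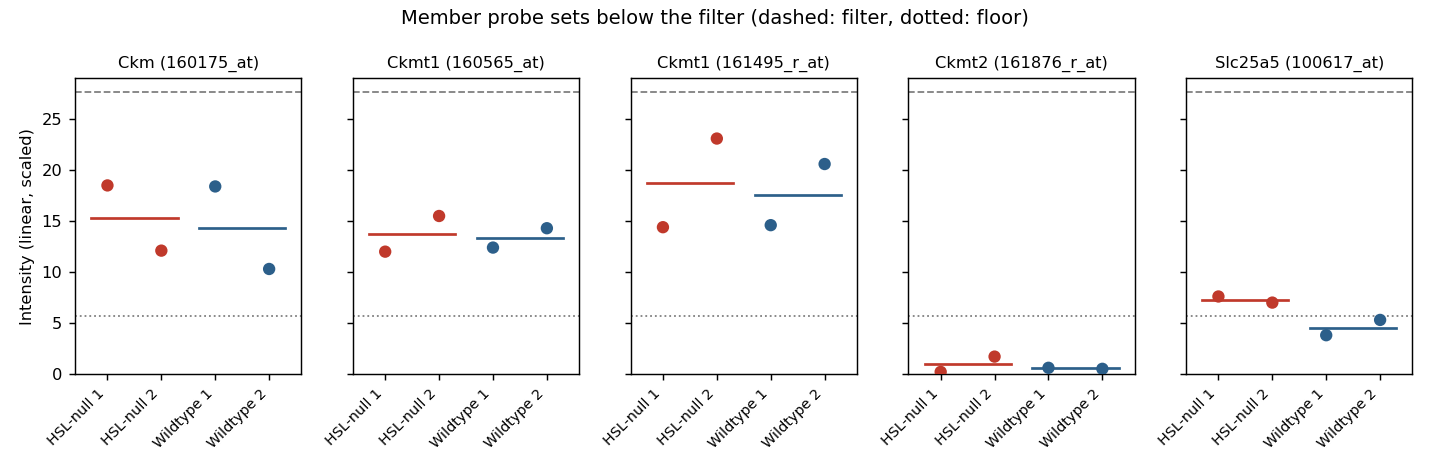
Intensity (linear, scaled by the authors) of the 5 member probe sets below the filter on each array, HSL-null in red and Wildtype in blue, with a line at each mean of 2 arrays, the filter at 27.7 dashed and the floor at 5.70 dotted. For Ckm and Ckmt1 the arrays of the same number resemble each other more than the arrays of the same genotype.

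Ak1, the cytosolic adenylate kinase, was the single gene of the 7 with a mean below that of Wildtype. It measured 2314 and 2328 in HSL-null, against 2662 and 2400 in Wildtype. Both HSL-null values lie below both Wildtype values, the HSL-null duplicates almost coincide, and the Wildtype duplicates lie far apart. The means were 2321 ± 9.76 (SD, n = 2 arrays) in HSL-null and 2531 ± 185 in Wildtype, a log2 difference of -0.12 ± 0.075 (SE of duplicates) or -8.16%. The 4 pairwise differences ran from -0.20 to -0.044. Of all probe sets above the filter, 57.6% had a smaller difference, without regard to sign. Among the 353 probe sets with a mean of at least 1000, a level chosen after the values were seen, 81.0% had a smaller difference. The difference was -0.11 with median centring, -0.16 with quantile normalization and -0.14 with cyclic loess. With an array left out it lay between -0.20 and -0.048. Apart from the scalings, the alternatives could not change its sign, because all 4 pairs lay below 0.

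Adssl1, the muscle form of adenylosuccinate synthetase, was the most even of the bright genes. It measured 2090 and 2054 in HSL-null, against 2048 and 1998 in Wildtype. All HSL-null values lie above the Wildtype values, the closest pair by a fold of 1.00. The means were 2072 ± 25.5 (SD, n = 2 arrays) and 2023 ± 35.5, a log2 difference of 0.034 ± 0.022, and it was -0.014 with quantile normalization, so that no direction holds.

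Ak1 and Adssl1 were thus 2 of 9 probe sets whose arrays did not overlap between the genotypes, 1 lower and 1 higher in HSL-null. At any size of difference, 40.6% of all 6208 probe sets did not overlap (19.5% higher and 21.1% lower in HSL-null), so a lack of overlap alone says little about either gene.

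Slc25a4, the ADP/ATP translocase of heart and skeletal muscle, measured 4248 and 3800 in HSL-null, against 3845 and 3693 in Wildtype. HSL-null array 1 stands above the rest and HSL-null array 2 lies between the Wildtype arrays, so that the groups overlap. The means were 4024 ± 317 (SD, n = 2 arrays) in HSL-null and 3769 ± 108 in Wildtype, a log2 difference of 0.092 ± 0.086 (SE of duplicates), which was 0.012 without HSL-null array 1, 0.17 without HSL-null array 2 and 0.012 with quantile normalization. The highest intensity on any array lay between 5646 and 6183, and a change in genes as bright as Slc25a4 and Ckmt2 may be compressed there.

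Slc25a5, the translocase found in most tissues, had the largest mean difference and also the widest spread. Its brightest probe set, 100618_f_at, measured 143 and 165 in HSL-null, against 151 and 114 in Wildtype. Wildtype array 2 was the low value, and the other Wildtype array lies between the HSL-null arrays. The means were 154 ± 15.6 (SD, n = 2 arrays) and 133 ± 26.2, a log2 difference of 0.22 ± 0.23, which was 0.021 without Wildtype array 2 and 0.43 without Wildtype array 1.

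The probe set 100619_r_at of Slc25a5 measured 53.5 and 45.4 in HSL-null and 48.6 and 44.7 in Wildtype, a log2 difference of 0.081 ± 0.13 (SE of duplicates) with overlapping groups. The third, 100617_at, read 7.6 and 7.0 in HSL-null and 3.8 and 5.3 in Wildtype. These values do not overlap, but both Wildtype arrays are under the floor and the HSL-null arrays just above it, so no fold is given. Probe sets with the suffixes _f and _r may also read related sequences, and the values of this gene are uncertain to that extent.

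**Figure D3:**
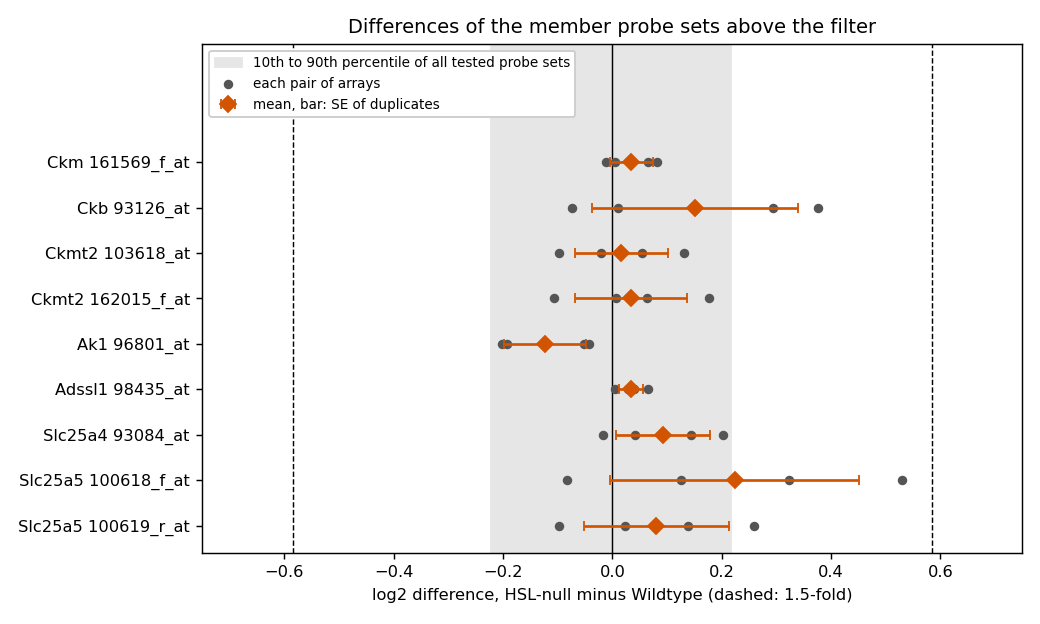
Log2 difference, HSL-null minus Wildtype, of the 9 member probe sets above the filter (x axis): grey points are the 4 pairs of arrays, diamonds the mean with the SE of duplicates. Every pair lies inside the dashed lines at 1.5-fold, and the largest single pair, of Slc25a5, reached 1.44-fold.

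The members shared a tendency towards low values on a single array. Wildtype array 2 gave the lowest of the 4 values for 7 of the 9 probe sets, all but Ckb and Ak1, whereas it was lowest for 26.4% of all 6208. Among the probe sets with a mean of at least 1000 it was lowest for 39.9%, and for 5 of the 6 members at that level. With quantile normalization it was lowest for 4 of 9, with cyclic loess for 6 of 9. The count of members above 0 also varied. It was 8 of 9 with the values as deposited, where 49.5% of all probe sets lay above 0, 8 of 9 with median centring, 5 of 9 with quantile normalization and 7 of 9 with cyclic loess. Without Wildtype array 2 it was 5 of 9, without either HSL-null array it was 6 of 9, and it stayed at 8 of 9 without Wildtype array 1. Whether an array or the genotype lay behind these counts was not tested. Probe sets of 1 gene share their target, so the 9 are not independent.

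By the likeness of the 4 values, each probe set centred on its own mean in log2, Ckm was closest to Sdha, Ufc1 and Vapa, with root mean square distances of 0.0040, 0.0043 and 0.0047. As many as 705 named probe sets lay within 0.05 of Ckm, so that its flat pattern was a common one. Slc25a5, the member with the largest difference, was closest to Tceal9 (0.021), Angpt1 (0.023) and Psmd11 (0.025), and 16 named probe sets lay within 0.05. The Tceal9 match was a dim probe set with a log2 difference of 0.25, and a brighter Tceal9 probe set differed by -0.097, the opposite sign. Psmd11 was dim too, with 30.1 and 36.4 in HSL-null and 32.3 and 24.4 in Wildtype. These likenesses rest on 4 arrays of 2 pools.

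Of the genes of fast fibres, in which Ckm and Ak1 are richer, 3 of the 15 above the filter were separated, all higher in HSL-null, against 0.226% of all probe sets. Myh4, which encodes the myosin of the fastest glycolytic fibres, measured 1897 and 1782 in HSL-null, against 279 and 277 in Wildtype (a log2 difference of 2.72 ± 0.046). Actn3, a Z-disc protein limited to fast fibres, differed by 1.61 ± 0.10, and Pvalb, a calcium buffer, by 0.75 ± 0.039. A dim second probe set of Myh4 had a log2 difference of 0.15, without separation. Of the 15 genes 7 did not overlap between the genotypes, all higher in HSL-null (7 or 8 under the other scalings), against 40.6% of all probe sets in either direction and 19.5% higher. The median of the 15 was 0.087. Beside them, Ckm differed by 0.035 and Ak1 by -0.12. Fast fibre genes summed to 38560 and 38140 in HSL-null and 34666 and 32207 in Wildtype. Slow fibre genes summed to 46096 and 43953 in HSL-null and 45406 and 43301 in Wildtype. The brightest probe sets weigh most in such sums. The fast sum includes the 3 separated genes, so it does not describe a rise across the list. Of 13 slow fibre genes 0 were separated, 3 were higher and 3 lower without overlap, and their median was 0.024. With quantile normalization 0 were higher and 5 lower without overlap, and the median was -0.020, so that this balance depends on the scaling. The relation of the fibre markers to the energy enzymes was not tested.

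Markers of other cells in the tissue differed between the pools to varying degrees. Of 4 adipocyte markers above the filter, 1 was separated, Adipoq, lower in HSL-null, against 0.226% of all probe sets. Adipoq, which encodes adiponectin, measured 73.5 and 74.1 in HSL-null and 150 and 157 in Wildtype. The median of the 4 was -0.26, and 3 were lower in HSL-null without overlap, against 21.1% of all probe sets. The 6 fibroblast markers had a median of 0.24 with 0 separated, and all 6 were higher in HSL-null without overlap (5 with quantile normalization), as were all 3 erythroid markers, against 19.5% of all probe sets. The medians were -0.14 for 6 endothelial, -0.020 for 6 macrophage, 0.12 for 3 erythroid, 0.084 for 2 Schwann cell and nerve and -0.090 for 5 smooth muscle markers, with 0 separated. Their part in the values of Ckb and Slc25a5, which such cells also express, was not tested.

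**Figure D4:**
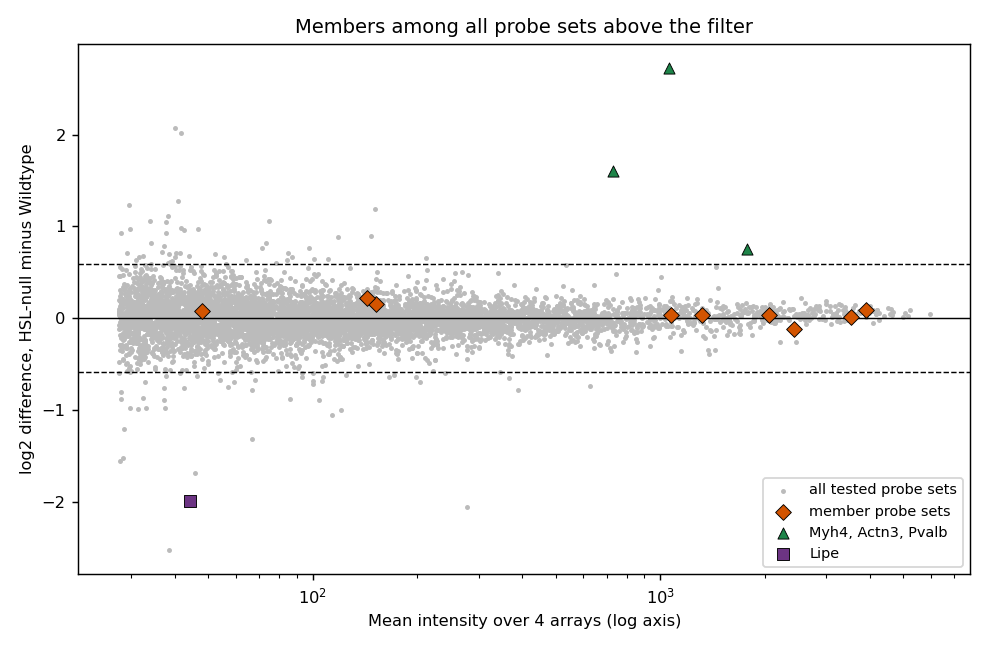
Log2 difference, HSL-null minus Wildtype (y axis), against the mean intensity over the 4 arrays (x axis, log scale) for the 6208 probe sets above the filter, with dashed lines at 1.5-fold. The 9 member probe sets lie between -0.12 and 0.22, with Myh4, Actn3 and Pvalb above the upper line and Lipe below the lower one.

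Other genes of creatine and adenine nucleotide metabolism were taken from 9 lists, which hold 76 genes. Of these 40 were above the filter, each read by its brightest probe set. Of the 40, 0 were separated in either direction, against 0.226% of all probe sets in each. Non-overlapping arrays were found for 12 of the 40, 8 higher and 4 lower in HSL-null, against the 40.6% of all probe sets. The median was 0.019, and 24 of the 40 lay above 0, against 49.5% of all probe sets. That count was 27 with median centring and 22 with quantile normalization or cyclic loess. The medians of the lists ran from -0.14 for AMP-activated protein kinase to 0.055 for the nucleoside diphosphate kinases, each over 2 to 12 genes.

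The 3 genes that supply creatine overlapped between the genotypes. Slc6a8, the creatine transporter, measured 353 and 446 in HSL-null and 467 and 376 in Wildtype (log2 difference -0.079 ± 0.23, SE of duplicates). Gatm and Gamt, the enzymes of creatine synthesis, differed by -0.051 ± 0.23 and -0.038 ± 0.13 on their brightest probe sets, and were picked with their values in view. A second Gamt probe set above the filter differed by 0.37, the opposite sign, so no direction is given for that gene. The duplicates of Slc6a8 were farther apart than the pools.

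In the cycle around AMP, Adsl, which completes the step begun by Adssl1, measured 784 and 785 in HSL-null and 700 and 846 in Wildtype. The HSL-null values lie between the Wildtype values. Adss, the synthetase of most other tissues, measured 58.9 and 62.8 in HSL-null and 48.1 and 50.6 in Wildtype (log2 difference 0.30 ± 0.059), apart on all 4 pairs but not separated, and a second Adss probe set differed by 0.48, also not separated. Ampd3, an AMP deaminase, differed by -0.15 ± 0.23, and both were chosen after their values were seen. Ak3, the adenylate kinase of the mitochondrial matrix, measured 125 and 111 in HSL-null and 133 and 127 in Wildtype, with a difference of -0.14 ± 0.091. It was apart on all 4 pairs with the values as deposited, but not with median centring or cyclic loess, and a second, dimmer Ak3 probe set differed by 0.045.

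Of the salvage enzymes, Adk, the adenosine kinase, differed by -0.019 ± 0.068, and of the enzymes of purine synthesis Prps1, which makes the ribose phosphate donor, by -0.032 ± 0.048. Nme2, a nucleoside diphosphate kinase, measured 2249 and 2126 in HSL-null and 2122 and 2116 in Wildtype (0.045 ± 0.041). Ada, the adenosine deaminase, could not be judged, with 93.2 and 8.4 in HSL-null and 50.5 and 19.0 in Wildtype, and it was chosen after its values were seen. Stk11, an upstream kinase of AMP-activated protein kinase, which senses AMP, differed by -0.17 ± 0.17.

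Among carriers of the mitochondrial membranes, Vdac3, an outer membrane porin, differed by 0.032 ± 0.13. The largest difference of all 40 genes was that of Slc25a25, a carrier that exchanges ATP-Mg for phosphate. It measured 275 and 228 in HSL-null and 155 and 196 in Wildtype, a difference of 0.52 ± 0.22 that is apart on all 4 pairs, with the closest pair under 1.5-fold. This gene was chosen after its values were seen. Of 12 ATP synthase genes 0 were separated, with 3 higher and 1 lower without overlap, against 40.6% of all probe sets in either direction. Atp5l measured 3868 and 3737 in HSL-null and 3428 and 3465 in Wildtype (0.14 ± 0.026; a dim second probe set differed by 0.39), and Atp5k, chosen after its values were seen, differed by -0.34 ± 0.13.

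**Figure D5:**
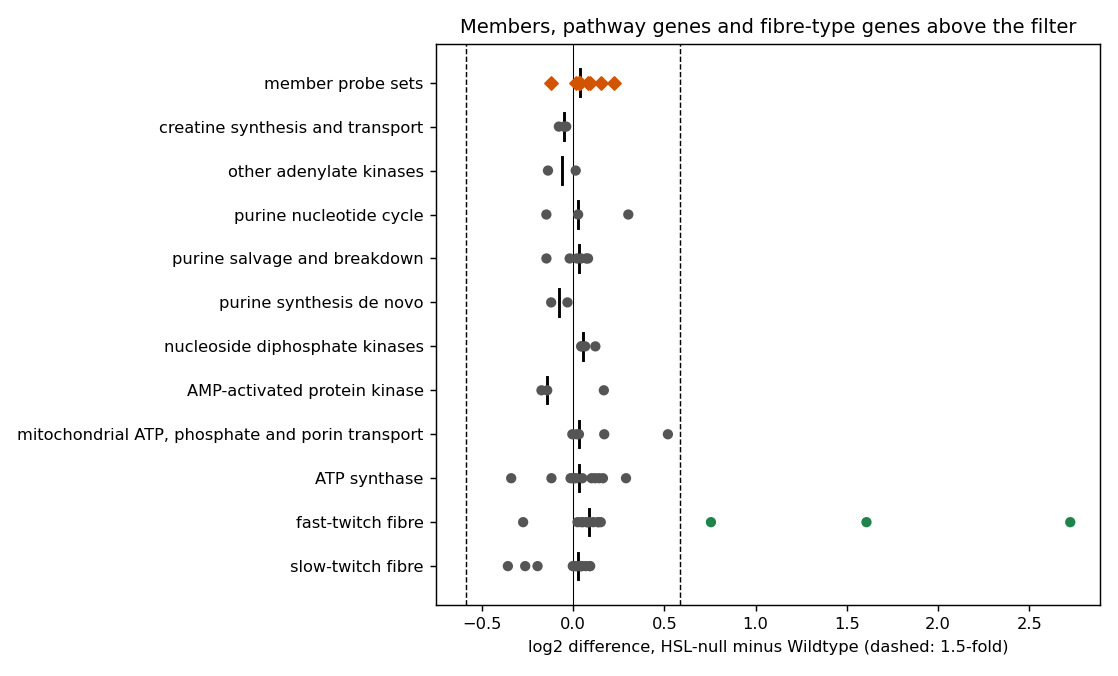
Log2 difference, HSL-null minus Wildtype (x axis), of the 9 member probe sets (diamonds) and of the genes of 9 pathway lists and 2 fibre-type lists above the filter (points, a black line at each median). The dashed lines mark 1.5-fold, and the green points are the separated genes Myh4, Actn3 and Pvalb.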

How the data were processed

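The deposited table holds 1 linear intensity per probe set and array. The authors had already scaled these values: the mean without the 2% of values at either end was 100.1 on all 4 arrays. No source used here names the software or the background correction. Each array listed 1 to 3 probe sets at 0. Of the 12488 probe sets, 10855 had 1 symbol, 396 several and 1237 none in the platform annotation, and 10817 were matched by gene ID to RefSeq (GRCm38.p6), used for names only. No coordinates are given, since no genome build is named.

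The 66 control probe sets were left out. Per pool, 2 arrays are duplicates of 1 sample, so differences carry the SE of duplicates and no p-value, and the number of arrays limits the precision. The rule for separation was first tested on simulated data, with noise set by the spread of the duplicates. That test held no variation between animals and required no rate of calls at 1.5-fold. Alternatives covered scaling (limma 3.58.1 in R 4.3.3 for quantile and cyclic loess, with 0 set to 0.1), floor, filter, threshold, each array left out and the replicate number as a block. Python 3.11.15, numpy 2.4.6 and pandas 2.3.3 were used.

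The genes, the 18 lists and the rules were chosen with earlier results of these data known. By rule the text names every probe set of the genes studied, Lipe, the separated genes of each list or else the brightest, and the 3 genes closest in pattern to Ckm and to the gene with the largest difference. Not every list's brightest gene is given for the cell type markers, and Gatm, Gamt, Adss, Ampd3, Ada, Slc25a25 and Atp5k were added after their values were seen.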

Additional observations from a re-analysis of the deposited data

How the results depend on the processing

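The count of separated member probe sets was 0 under every alternative listed under the processing, the lowest fold threshold and each array left out included. It covered the same 9 each time, except 14 without a filter and 8 with the filter at the 75th percentile. The median difference of the members stayed above 0 throughout, at 0.050 with median centring, 0.012 with quantile normalization and 0.031 with cyclic loess, and between 0.016 and 0.11 with an array left out. Of the 9, 3 changed sign with quantile normalization and 1 with cyclic loess. Leaving out Wildtype array 2 changed the sign of 3, either HSL-null array that of 2, and Wildtype array 1 that of 0. The count over all probe sets was 28 as reported, 175 without a filter, 10 with the filter at the 75th percentile, 132 at the lowest fold threshold tried, 14 at 2-fold, and 82 to 109 with an array left out, when fewer differences had to pass. Among the pathway genes it ranged from 0 to 1 with an array left out, the gene being Ada. Same-numbered arrays did not deviate together (r = -0.086 between the differences of duplicates over the 6208 probe sets). With the replicate number as a block, 0 members, 0 pathway genes and 35 of all probe sets were separated. Low signal limits what could be seen for Ckmt1 and the dim Ckm probe set, which lay below the filter, and values under the floor for the dimmest probe sets of Ckmt2 (all 4 arrays) and Slc25a5 (both Wildtype arrays).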
